A study of Homo sapiens with 6 samples.

Results

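NR0B1, NKX2-2, GLI1, CCK, SLFN11, CD99 and STEAP1 are 7 genes long known as transcripts that the oncoprotein EWS-FLI1 keeps high in Ewing sarcoma. They were followed in A673 and SKNMC, both established Ewing sarcoma cell lines. The genes were taken by symbol from a deposited table of 27420 genes, where each of the 7 symbols matched 1 row. Cells of each line, with no other agent or engineered change named, were kept for 6 h with the vehicle DMSO or with THZ1, a covalent inhibitor of the kinase CDK7, at 50 nM or at 200 nM. Total RNA was sequenced from 1 library per line and treatment, 6 in all. No line had replicates of a treatment, so a comparison within a line describes single libraries, with no p-value, and a test was made only over both lines together. Levels are FPKM, fragments per length of transcript and per size of the library, which can be compared between genes. As FPKM is a share of a library, fewer cells and less RNA per cell cannot be told apart. A loss common to all transcripts would not show either. Higher, lower, rose and fell thus refer to this share and not to RNA per cell. All 7 genes were above 1 FPKM in all 6 libraries, the level above which a gene in the DMSO library of its line was counted as active.

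EWS-FLI1 joins the amino-terminal part of EWSR1, an RNA-binding protein, to the ETS DNA-binding domain of FLI1. The fusion binds single ETS sites with a GGAA core and also runs of GGAA repeats, where it opens chromatin and turns the repeat into an active enhancer. CDK7 is the kinase of the general transcription factor TFIIH and phosphorylates the carboxy-terminal tail of RNA polymerase II, so its inhibition acts on transcription at large. Among the genes described here, NR0B1 encodes DAX1, an orphan nuclear receptor and corepressor, NKX2-2 a homeodomain repressor, and GLI1 the zinc finger effector of hedgehog signalling. CCK encodes the precursor of the peptide hormone cholecystokinin. SLFN11 encodes a protein that blocks stalled replication forks and sensitises cells to DNA-damaging drugs. CD99 is the surface glycoprotein used to recognise Ewing sarcoma under the microscope, and STEAP1 is a membrane protein of the metalloreductase family.

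The sequences near these genes are shown because GGAA repeats are the elements through which EWS-FLI1 is known to act. In the GRCh37 reference, uninterrupted runs of at least 4 GGAA units, on either strand, lay within 2000 bases of the listed 5′ end of 2 of the 7 genes, NR0B1 and CCK, against 1.36% of all 27407 genes placed. Within 50000 bases on either side they were near 4 of the 7, against 34.5% of all genes. The NR0B1 repeat lay 1160 to 1261 bases upstream of the gene and between annotated genes, and had 11, 7 and 7 units parted by single bases. The CCK region began 320 bases upstream, also between annotated genes, and held runs of 11, 10, 4 and 13 units over 362 bases, of which the 300 nearest the gene are printed. CD99 had a run of 13 units 26015 bases upstream and NKX2-2 a run of 9 units 41837 bases upstream. No such run was in these windows of GLI1, SLFN11 or STEAP1, which says nothing about single GGAA cores. Both sequences are given from 5′ to 3′ on the minus strand, on which the genes lie, with GGAA in capitals; they are reference sequence, and the repeat length in these cell lines was not measured.
NR0B1 GGAA repeat (chrX:30328875-30328976): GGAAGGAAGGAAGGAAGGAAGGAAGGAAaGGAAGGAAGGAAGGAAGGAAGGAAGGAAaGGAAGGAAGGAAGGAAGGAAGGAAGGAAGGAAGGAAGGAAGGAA
CCK GGAA repeat (chr3:42308019-42308318): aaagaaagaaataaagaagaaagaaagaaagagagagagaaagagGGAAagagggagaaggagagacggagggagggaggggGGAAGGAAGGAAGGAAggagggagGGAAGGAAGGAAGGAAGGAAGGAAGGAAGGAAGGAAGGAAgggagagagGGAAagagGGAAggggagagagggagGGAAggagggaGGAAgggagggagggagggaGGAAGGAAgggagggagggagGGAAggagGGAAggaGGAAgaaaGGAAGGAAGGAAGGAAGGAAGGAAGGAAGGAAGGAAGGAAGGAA

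**Figure D1:**
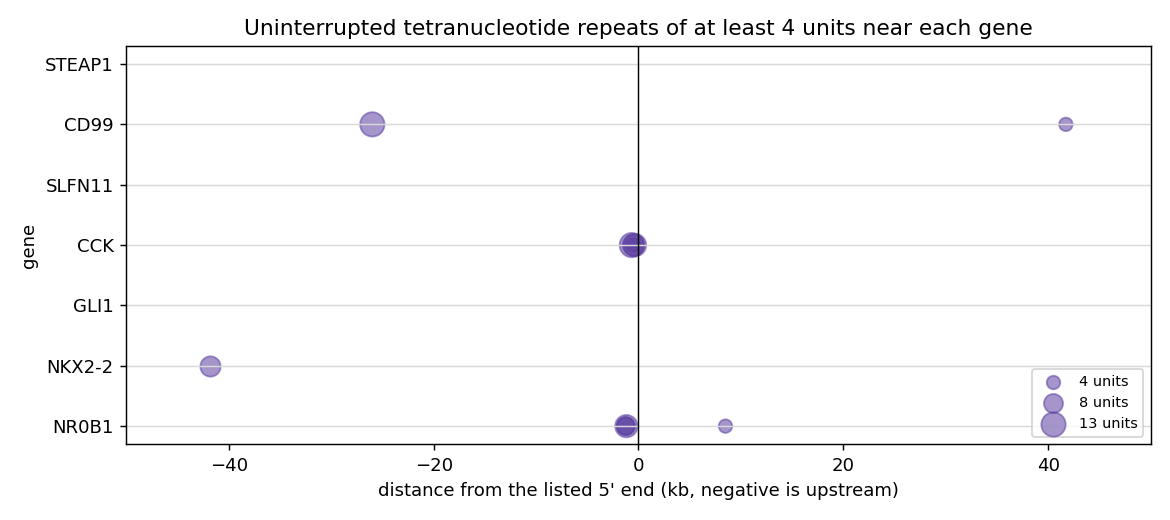
Position of tandem tetranucleotide repeats of at least 4 units around each gene. The x axis is the distance from the listed 5′ end in kb on the gene's strand, each row is a gene, and the area of a point grows with the number of units. NR0B1 and CCK have such runs within 2000 bases, NKX2-2 and CD99 only farther away, and GLI1, SLFN11 and STEAP1 none in the window.

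Before treatment the 7 genes ranged from very abundant to low transcripts of the active genes. CD99 was at 504 FPKM in A673 and 313 FPKM in SKNMC with DMSO, at percentile 98.8 and 98.5 of the active genes of each line. STEAP1 was at 175 and 208 FPKM. GLI1 was the lowest of the 7 in every library, at 2.95 FPKM in A673 and 3.10 FPKM in SKNMC with DMSO. The lines were close for GLI1 and STEAP1 and far apart for others. CCK was at 4.26 FPKM in A673 and 148 FPKM in SKNMC, 34.8-fold higher in SKNMC. SLFN11 was at 34.0 and 99.3 FPKM, 2.92-fold higher in SKNMC, and NKX2-2 at 14.8 and 37.6 FPKM, 2.54-fold higher there. NR0B1 went the other way, at 58.6 FPKM in A673 and 25.2 FPKM in SKNMC, 2.32-fold higher in A673. On the log2(FPKM + 1) scale 4 of the 7 genes differed at least 2-fold between the untreated lines, and 23.5% of 12399 genes above 1 FPKM in either line did. NR0B1 was the 1 member higher in A673, where 8.42% of these genes were, and NKX2-2, CCK and SLFN11 were the 3 lower in A673, where 15% were. Line and library cannot be told apart here, each line having a single DMSO library.

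**Figure D2:**
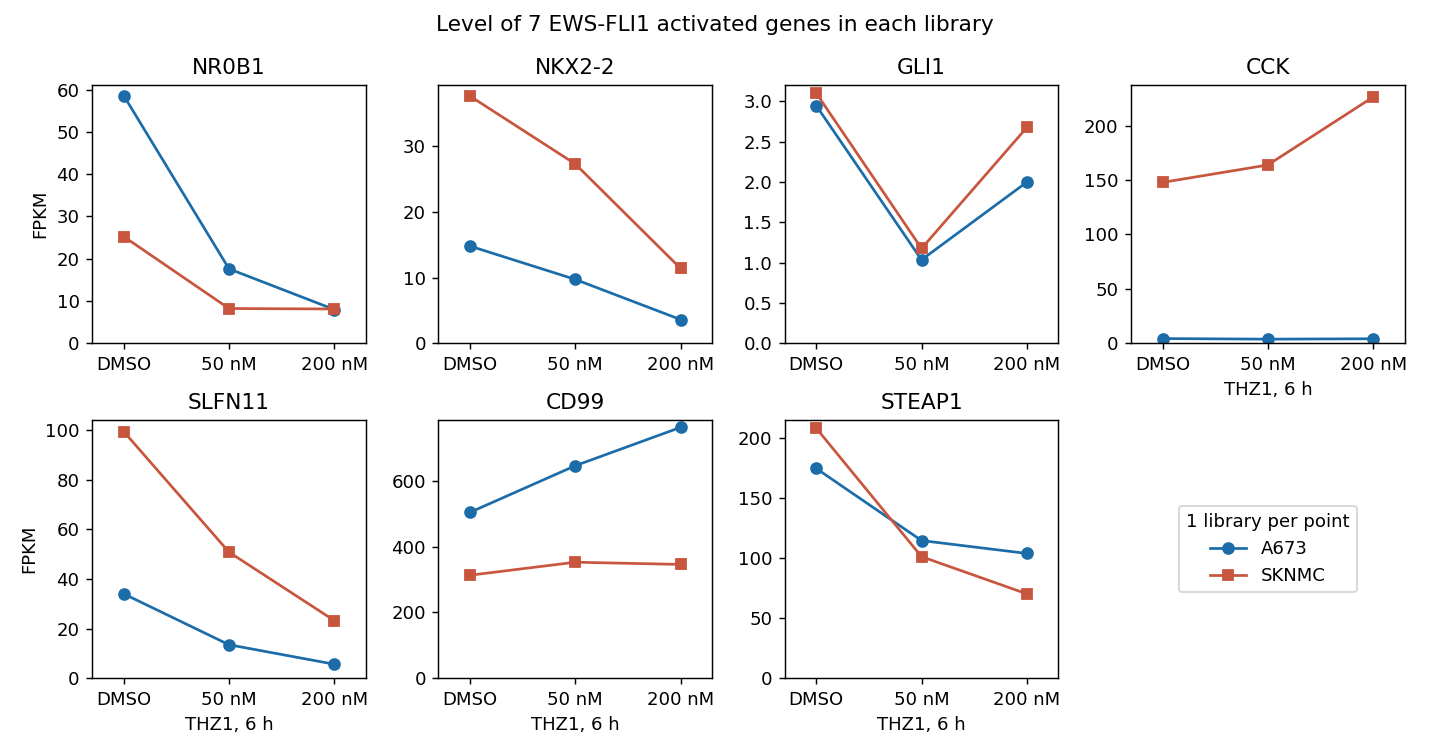
FPKM of each gene in the 6 libraries, 1 point per library, with the dose of THZ1 on the x axis, FPKM from 0 on the y axis and a separate scale in each panel. NR0B1, NKX2-2, SLFN11 and STEAP1 were lower at both doses in both lines, GLI1 was lowest at 50 nM, and CD99 was above DMSO in all 4 treated libraries.

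The labelled cell type could be checked against other genes. Of the Ewing sarcoma markers that are not members, FLI1, BCL11B and KDSR were present in both untreated lines. Of 13 markers of leukocytes, muscle, endothelium and epithelium, 12 matched a row, and 11 of these stayed at or under 0.826 FPKM in every library. The exception was PTPRC, the leukocyte surface phosphatase CD45, at 10.2, 7.90 and 13.1 FPKM in SKNMC with DMSO, 50 nM and 200 nM and at most 0.0291 FPKM in A673. Of the other leukocyte markers, CD3E was listed at 0 in all 6 libraries and CD14 was at most 0.187 FPKM, and the part of PTPRC in the differences between lines was not tested.

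With THZ1 at 50 and 200 nM, 6 of the 7 transcripts were lower in A673, beside 70.1% and 70.4% of active genes. In SKNMC 5 of the 7 were lower at each dose, beside 73.0% and 80.8% of active genes. NR0B1, NKX2-2 and SLFN11 were at least 2-fold lower at 200 nM in both lines, as were 20.4% of the 10574 genes active in both. At least 2-fold lower in A673 at 50 nM were 2 of the 7, NR0B1 and SLFN11, while 15.9% of 11077 active genes were. At 200 nM in A673 there were 3, with NKX2-2 added, while 25.3% of active genes were at least 2-fold lower. In SKNMC at 50 nM there were 2, NR0B1 and STEAP1, against 15.8% of 11896 active genes. At 200 nM in SKNMC there were 4, NR0B1, NKX2-2, SLFN11 and STEAP1, against 27.3%. None of the 7 was at least 2-fold higher in any comparison with DMSO, and of active genes 0.343% and 0.126% were in A673 and 0.471% and 0.462% in SKNMC, at 50 and 200 nM. At a 1.5-fold threshold 4 of the 7 were lower in each comparison, beside 31.8% and 41.1% of active genes in A673 and 33.5% and 48% in SKNMC. Higher by that threshold were CD99 in A673 at 200 nM, beside 1.7% of active genes, and CCK in SKNMC at 200 nM, beside 2.81%. At 50 nM none of the 7 was, beside 1.78% and 2.43%. The median log2 fold change of the 7 was -0.60 and -0.74 in A673 at 50 and 200 nM, beside -0.27 and -0.40 for active genes, and in SKNMC -0.91 and -1.53, beside -0.32 and -0.55. Each log2 fold change was taken after adding 1 to the FPKM of both libraries, a scale on which low genes show too small a change, and both doses of a line share its DMSO library. Lower than DMSO in all 4 comparisons were 5 of the 7 genes and 52.9% of the genes active in both lines.

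**Figure D3:**
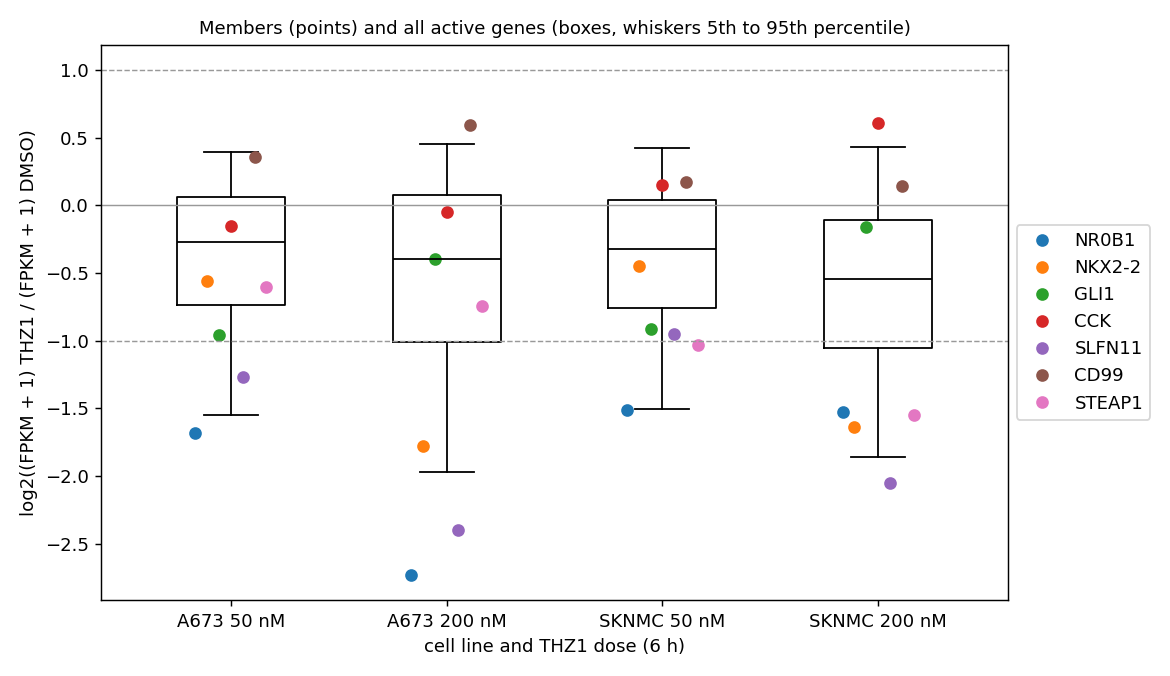
Log2 fold change of each gene against the DMSO library of its line, as points, over boxes of all active genes (quartiles and median, with whiskers from the 5th to the 95th percentile). The x axis is the line and dose, and dashed lines mark 2-fold. NR0B1 in A673 at 200 nM, at -2.73, is the lowest point, and CCK in SKNMC at 200 nM, at 0.61, the highest.

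A fit over both lines gave the mean change of A673 and SKNMC, and a call in this fit does not show that both lines changed alike. It used limma on log2(FPKM + 1) with the cell line as a block and the treatment as a term, over the genes active in both lines, and was added after the values had been seen. With 2 lines per treatment and 2 residual degrees of freedom, its error starts from the disagreement between the lines. limma then draws the error of each gene toward that of all genes tested at a like level. Its p-values thus rest on more than the agreement of the 2 lines for a gene. The spread between cultures of a line is not in this error. At 50 nM 5 of the 7 genes fell past an adjusted p (Benjamini-Hochberg over all genes tested) of 0.05, beside 38.5% of genes tested, and at 200 nM 4 fell, beside 52.7%. None rose at 50 nM, beside 5.12% of genes tested, and 1 rose at 200 nM, beside 6.08%.

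In this limma fit NR0B1 fell by 1.60 ± 0.25 (log2, SE) at 50 nM, with an adjusted p of 0.000348, and by 2.13 ± 0.25 at 200 nM, with an adjusted p of 2.27e-05. SLFN11 fell by 1.11 ± 0.15 and 2.22 ± 0.15, with adjusted p of 0.000166 and 1.57e-06, and was the gene with the largest fall among the 7 at 200 nM. STEAP1 fell by 0.82 ± 0.16 and 1.15 ± 0.16, with adjusted p of 0.00185 and 9.98e-05. NKX2-2, for which most of the fall came at the higher dose, fell by 0.50 ± 0.16 at 50 nM (adjusted p = 0.0235) and by 1.71 ± 0.16 at 200 nM (adjusted p = 5.35e-06). The NKX2-2 call at 50 nM was lost under scaling on the 75th percentile, at -0.25 (adjusted p = 0.223). With any library left out, a treatment is held by 1 library, so such fits are given as values alone. NKX2-2 at 50 nM was then between -0.57 and -0.44. GLI1 fell at 50 nM by 0.94 ± 0.17 (adjusted p = 0.00106), and its value at 200 nM was -0.28 ± 0.17 (adjusted p = 0.187), which passed only under scaling on ribosomal protein genes, at -0.61 (adjusted p = 0.00262). CD99 was at 0.26 ± 0.11 at 50 nM (adjusted p = 0.0770), and passed there under the 75th percentile, at 0.54 (adjusted p = 0.00277). With a library left out CD99 at 50 nM was between 0.10 and 0.42. It was the gene that rose at 200 nM, by 0.37 ± 0.11 (adjusted p = 0.0140). Its value at 200 nM was 0.21 and 0.19 without the DMSO or the 200 nM library of A673, and up to 0.55 with another library left out. Under scaling on ribosomal protein genes it was -0.12. CCK, which differed in sign between the lines, was at -0.0034 ± 0.17 and 0.28 ± 0.17, with adjusted p of 0.990 and 0.180. With a library left out CCK at 200 nM was between 0.026 and 0.54. It passed at 200 nM under the 75th percentile, at 0.72 (adjusted p = 0.0128). Without the line as a block none of the 7 passed in limma, with adjusted p from 0.0509 upward. Of all 10574 genes tested 0 passed in that fit at 50 nM, where 1978 were lower and 72 higher at an unadjusted p under 0.05. At 200 nM 1399 passed as lower, or 13.2%, and 3 as higher, or 0.0284%.

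NR0B1 (ENSG00000169297, chrX:30322322-30327715, minus strand, hg19), a well-known repeat-driven target, was lower in each treated library and was the single one of the 7 that was at least 2-fold lower in all 4 comparisons, as were 8.7% of the genes active in both lines. In A673 it was at 58.6 FPKM with DMSO, 17.6 FPKM at 50 nM and 7.97 FPKM at 200 nM. In SKNMC it was at 25.2, 8.20 and 8.10 FPKM. The lines differed with DMSO and lay at nearly the same level at 200 nM. Its log2 fold change at 50 nM was -1.68 in A673 and -1.51 in SKNMC, at percentiles 3.54 and 4.88 of active genes. At 200 nM it was -2.73 in A673, rank 73 from the lowest of 11077 genes, and -1.53 in SKNMC, at percentile 10.8. It shared no stretch of 100 bases of its longest transcript with another gene. From 50 to 200 nM the log2 difference was -1.05 in A673 and -0.017 in SKNMC, so the further step of the higher dose was seen in 1 of the lines, and whether the lines differ in it could not be tested. Its paralog NR0B2 and the nuclear receptors NR5A1 and NR5A2, the steroidogenic partners of DAX1 in adrenal and gonad, were all at or under 1 FPKM in every library.

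NKX2-2 (ENSG00000125820, chr20:21491647-21494664, minus strand) had its main step between the doses. It was at 14.8, 9.71 and 3.6 FPKM in A673 and at 37.6, 27.3 and 11.4 FPKM in SKNMC with DMSO, 50 nM and 200 nM. At 50 nM it kept 65.7% of its DMSO level in A673 and 72.5% in SKNMC, at percentiles 33.2 and 41.6 of active genes. At 200 nM it kept 24.3% and 30.3%, log2 fold changes of -1.78 and -1.64, at percentiles 7.35 and 8.53. The step between doses was -1.22 and -1.19 on the log2 scale, and 7.44% of active genes in A673 and 8.39% in SKNMC had a step of at least 2-fold downward. Of the 100-base stretches of its longest transcript 31.5% were also in GENCODE transcripts of other genes, NKX2-2-AS1 and ENSG00000289590. Reads there may come from these genes, since use of strand in counting is not stated. Whether the Ensembl 75 genes used for the FPKM include them was not checked. Of its 4 listed relatives, NKX2-5, the cardiac homeodomain factor, was the one above 1 FPKM. NKX2-5 was at 22.8, 11.6 and 3.79 FPKM in A673 and 20.5, 16.7 and 5.18 FPKM in SKNMC, with the lowest level at 200 nM in both lines. TLE3, a corepressor of the Groucho family that NKX2 factors recruit, was at 12.7, 12.9 and 4.39 FPKM in A673 and at 22.2, 27.3 and 5.81 FPKM in SKNMC. Of the same family, TLE4 was at 4.79, 6.16 and 2.42 FPKM in A673 and at most 0.888 FPKM in SKNMC. TLE2 was higher than DMSO in each treated library, at 2.17, 2.91 and 4.19 FPKM in A673 and 14.5, 15.4 and 20.7 FPKM in SKNMC.

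GLI1 (ENSG00000111087, chr12:57853917-57866045, plus strand) was the 1 of the 7 that was lowest at the low dose in both lines. It was at 2.95, 1.03 and 2.0 FPKM in A673 and at 3.10, 1.18 and 2.68 FPKM in SKNMC with DMSO, 50 nM and 200 nM. The log2 fold change at 50 nM was -0.96 in A673 and -0.91 in SKNMC, and at 200 nM -0.40 and -0.16. At 50 nM GLI1 kept 35.1% and 37.9% of its DMSO FPKM. It passed 2-fold there in both lines with a pseudocount of 0.1, at -1.43 and -1.33. Scaling on ribosomal protein genes also put it past 2-fold, at -1.13 and -1.06, while a common sum and the 75th percentile did not. From 50 to 200 nM GLI1 was 0.56 and 0.76 higher on the log2(FPKM + 1) scale. A pattern of at least 1.5-fold lower at 50 nM and at least 0.5 higher (log2) at 200 nM than at 50 nM, in both lines, was held by 84 of 10574 genes, or 0.794%; this definition was written after the GLI1 values were seen. The gene shares 9 bases at its end with ARHGAP9 on the other strand, which was at most 0.438 FPKM. The GLI1 level is low, and the counting error behind it is unknown.

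Other hedgehog genes were measured beside GLI1, and their dose patterns varied. GLI2, a transcriptional activator upstream of GLI1, was at 9.50, 4.52 and 1.74 FPKM in A673 and at 6.06, 2.09 and 1.53 FPKM in SKNMC. GLI3, which acts largely as a repressor, was at 7.49, 4.08 and 4.35 FPKM in A673 and 3.08, 1.61 and 2.33 FPKM in SKNMC. The receptor PTCH1, itself a GLI1 target, was at 6.68, 5.91 and 2.27 FPKM in A673 and 7.38, 9.03 and 2.07 FPKM in SKNMC. SUFU, the cytoplasmic inhibitor of GLI proteins, was at 5.34, 5.84 and 1.57 FPKM in A673 and 7.09, 7.21 and 2.02 FPKM in SKNMC, so PTCH1 and SUFU had their lowest level at 200 nM in both lines. The signal transducer SMO was highest at 50 nM in both lines, at 9.49, 11.7 and 9.46 FPKM in A673 and 21.1, 28.4 and 15.6 FPKM in SKNMC. The ligands SHH, IHH and DHH and the target HHIP were at or under 1 FPKM in every library.

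SLFN11 (ENSG00000172716, chr17:33677323-33700720, minus strand) was lower with each dose in both lines. It was at 34.0, 13.5 and 5.64 FPKM in A673 and at 99.3, 50.8 and 23.2 FPKM in SKNMC with DMSO, 50 nM and 200 nM. Every step was downward, and the levels of SKNMC stayed above those of A673 at the same dose. Its log2 fold change was -1.27 and -2.40 in A673 and -0.95 and -2.05 in SKNMC, at percentiles 9.38, 1.73, 17.4 and 3.14 of active genes. SLFN11 belongs to the Schlafen genes, a family clustered on its chromosome. SLFN5 was at 2.13, 0.37 and 0.33 FPKM in A673 and at 10.3, 1.13 and 1.23 FPKM in SKNMC, with nearly the same level at both doses. SLFN13 was at 4.11, 2.15 and 1.26 FPKM in A673 and 13.4, 7.43 and 4.12 FPKM in SKNMC. SLFN12 was at 7.40, 6.43 and 3.90 FPKM in A673 and at most 0.223 FPKM in SKNMC, and SLFN14 did not pass 1 FPKM. SLFN13 shares 8.37% of the stretches of 100 bases in the longest SLFN11 transcript, so reads there could be assigned to either gene.

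The surface genes CD99 (ENSG00000002586, chrX:2609219-2659350, plus strand) and STEAP1 had opposite directions. CD99 was at 504, 646 and 763 FPKM in A673 and at 313, 353 and 346 FPKM in SKNMC. It was higher than DMSO in all 4 treated libraries, as were 10% of the genes active in both lines, with log2 fold changes of 0.36 and 0.60 in A673 and 0.17 and 0.14 in SKNMC. The direction in A673 held under each scaling tried, while in SKNMC both changes became negative, -0.24 and -0.46, when the libraries were scaled on the median level of ribosomal protein genes. CD99L2, its paralog, was at 30.5, 30.3 and 37.2 FPKM in A673 and 16.7, 12.8 and 17.3 FPKM in SKNMC. CD99 lies in the region shared by the X and Y chromosomes, and the table lists it on X. Of the paired receptors of CD99-like ligands, PILRA was at most 2.41 FPKM, and PILRB was at 6.69, 2.63 and 2.54 FPKM in A673 and 10.7, 7.40 and 13.3 FPKM in SKNMC.

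STEAP1 (ENSG00000164647, chr7:89783688-89794143, plus strand) was at 175, 115 and 104 FPKM in A673 and at 208, 101 and 70.2 FPKM in SKNMC. Its log2 fold change was -0.60 and -0.74 in A673 and -1.03 and -1.55 in SKNMC, so it passed 2-fold in SKNMC alone, a difference that was not tested. With libraries scaled on the 75th percentile of active genes, it did not pass 2-fold in SKNMC either, at -0.74 and -0.99, and with libraries scaled on ribosomal protein genes it also passed in A673 at 200 nM, at -1.11. STEAP2, the neighbouring metalloreductase gene, was at 35.6, 22.1 and 15.1 FPKM in A673 and 31.1, 21.7 and 19.4 FPKM in SKNMC. STEAP1B, a near relative that shares 7.32% of the 100-base stretches of STEAP1, was at 16.0, 6.35 and 5.52 FPKM in A673 and 21.9, 8.72 and 4.07 FPKM in SKNMC. STEAP3 was at 9.52, 5.93 and 8.0 FPKM in A673 and 5.55, 1.59 and 1.59 FPKM in SKNMC, and STEAP4 did not pass 1 FPKM. STEAP1, STEAP1B, STEAP2 and STEAP3 were lower than DMSO in every treated library.

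CCK (ENSG00000187094, chr3:42299316-42307699, minus strand), the other gene with GGAA runs close to its start, was not lower in the line where it is abundant. It was at 148, 164 and 226 FPKM in SKNMC with DMSO, 50 nM and 200 nM, log2 fold changes of 0.15 and 0.61, and the latter was at percentile 97.5 of active genes. In A673 it was at 4.26, 3.72 and 4.08 FPKM, log2 fold changes of -0.15 and -0.049. The pattern of lower in A673 and higher in SKNMC at both doses was held by 0.88% of the genes active in both lines. The signs depended on scaling: with the 75th percentile both A673 values were above 0, at 0.050 and 0.26, and with the ribosomal protein genes the SKNMC values were -0.26 and 0.011. Of the 100-base stretches of its longest transcript 33.9% were also in ENSG00000281160, so reads there could come from either gene. These transcripts are from GENCODE, while the FPKM rest on Ensembl 75 genes. Whether the latter include ENSG00000281160 was not checked, so assignment of reads to it is not shown. Of the enzymes that process such peptides, PCSK2 and PAM were above 1 FPKM in both lines. The convertase PCSK2 was at 96.9, 108 and 122 FPKM in A673 and 15.7, 13.3 and 12.4 FPKM in SKNMC, and the amidating enzyme PAM was at 115, 131 and 142 FPKM in A673 and 31.1, 33.5 and 39.5 FPKM in SKNMC. PCSK1 was at 7.81, 5.96 and 8.51 FPKM in SKNMC and at most 0.872 FPKM in A673. The receptors CCKAR and CCKBR and the related peptide gene GAST did not pass 1 FPKM.

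Core promoters are shown as the places where the polymerase starts on these genes, and were chosen for printing after the values were seen. Not every member's window is given, so no relation between promoter sequence and response can be read from them. RefSeq promoters (GRCh38.p14) were found for 6 of the 7 genes, with 8 start sites, and each was placed on GRCh37 by exact match; GLI1 was the gene without one. Printed for 5 of these genes are the 30 bases from 40 to 11 before each start on the gene's strand, with TATAAA or TATATAA in capitals. NR0B1, SLFN11 and 1 of the starts of NKX2-2 held such a TATA sequence, 31 or 32 bases before the start. On the gene's strand within 50 bases of the start, TATAAA or TATATAA was found in 3.06% of 35115 RefSeq promoters, and a stretch that matches both motifs was counted once. The windows of CD99, CCK and the other NKX2-2 start held neither motif, which says only that these letters are not there, and a match is not evidence of a factor's binding.
NR0B1 (chrX:30327518-30327547, minus strand): gcgctaggTATAAAtaggtcccaggaggca
SLFN11 (chr17:33700651-33700680, minus strand): acccgctagTATATAAggactcgacctggg
NKX2-2 inner start (chr20:21493609-21493638, minus strand): ggcccgggTATAAAtagctcaccctgcccc
NKX2-2 outer start (chr20:21503338-21503367, minus strand): gcctggagccaggagcccggagccgggagg
CCK outer start (chr3:42307688-42307717, minus strand): gcccactccaccctcacactggcgttgcca
CCK inner start (chr3:42305450-42305479, minus strand): ttaatctcgtggggttttatttttcttctt
CD99 (chrX:2609296-2609325, plus strand): cgagtccccgggcttcgccccacccggccc

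The fusion partners gave the RNA level of the genes joined in EWS-FLI1, while the fusion protein was not measured in these data. FLI1 was at 31.5, 15 and 4.26 FPKM in A673 and at 27.3, 15.2 and 4.56 FPKM in SKNMC with DMSO, 50 nM and 200 nM. Its log2 fold change at 200 nM was -2.63 in A673 and -2.34 in SKNMC, at percentiles 0.894 and 1.44 of active genes. EWSR1 was at 134, 132 and 115 FPKM in A673 and at 161, 170 and 126 FPKM in SKNMC. The fusion transcript has no row of its own, and reads from it and from the unfused genes cannot be told apart in these rows. The part of FLI1 in the levels of the 7 genes was not tested.

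A wider list of 35 other genes known as activated by EWS-FLI1, of which 33 were active in each line, was set beside the 7. Like the 7, it was chosen with earlier results of these data known, so its counts are descriptions. In A673, 4 of 33 were at least 2-fold lower at 50 nM and 10 at 200 nM, shares of 12.1% and 30.3%, beside 15.9% and 25.3% of all active genes. In SKNMC, 6 of 33 were at 50 nM and 12 at 200 nM, 18.2% and 36.4%, beside 15.8% and 27.3%. None was at least 2-fold higher. The median log2 fold change of the list was -0.23 and -0.29 in A673 and -0.50 and -0.65 in SKNMC. At least 2-fold lower in all 4 comparisons were 3 of the 32 genes active in both lines, or 9.38%, beside 8.7% of all genes active in both. They were the mitotic kinases AURKA and AURKB and the adrenergic receptor ADRA1D. AURKA was at 61.2, 17.7 and 4.56 FPKM in A673 and at 50.9, 21.7 and 7.92 FPKM in SKNMC. ADRA1D was at 63.1, 19.6 and 18.8 FPKM in A673 and 59.4, 23.8 and 13.6 FPKM in SKNMC. AURKB was at 72.4, 26.2 and 26.4 FPKM in A673 and 33.4, 11.1 and 14 FPKM in SKNMC, with no lower level at the higher dose.

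Higher than DMSO in all 4 comparisons were 3 of the 32, or 9.38%, beside 10% of all genes active in both lines. They were the Fc receptor FCGRT, the peptide gene CALCB and the glutathione transferase GSTM4. In the limma fit over both lines 14 of the 32 fell at 50 nM and 17 at 200 nM, beside 38.5% and 52.7% of all genes tested. At each dose 1 rose, ID2 at 50 nM and FCGRT at 200 nM, beside 5.12% and 6.08%. FCGRT was at 224, 248 and 305 FPKM in A673 and 422, 440 and 519 FPKM in SKNMC. CALCB, like CCK the precursor of a secreted peptide, was at 63.1, 65.6 and 74.6 FPKM in A673 and 74.8, 88.7 and 87.3 FPKM in SKNMC. The most abundant genes of the list were CAV1, CCND1 and FCGRT in both lines. CCND1, which encodes cyclin D1, was at 711, 461 and 505 FPKM in A673 and 370, 197 and 202 FPKM in SKNMC. CAV1, the caveolar scaffold gene, was at 1577, 1389 and 1470 FPKM in A673 and at 485, 259 and 327 FPKM in SKNMC.

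**Figure D4:**
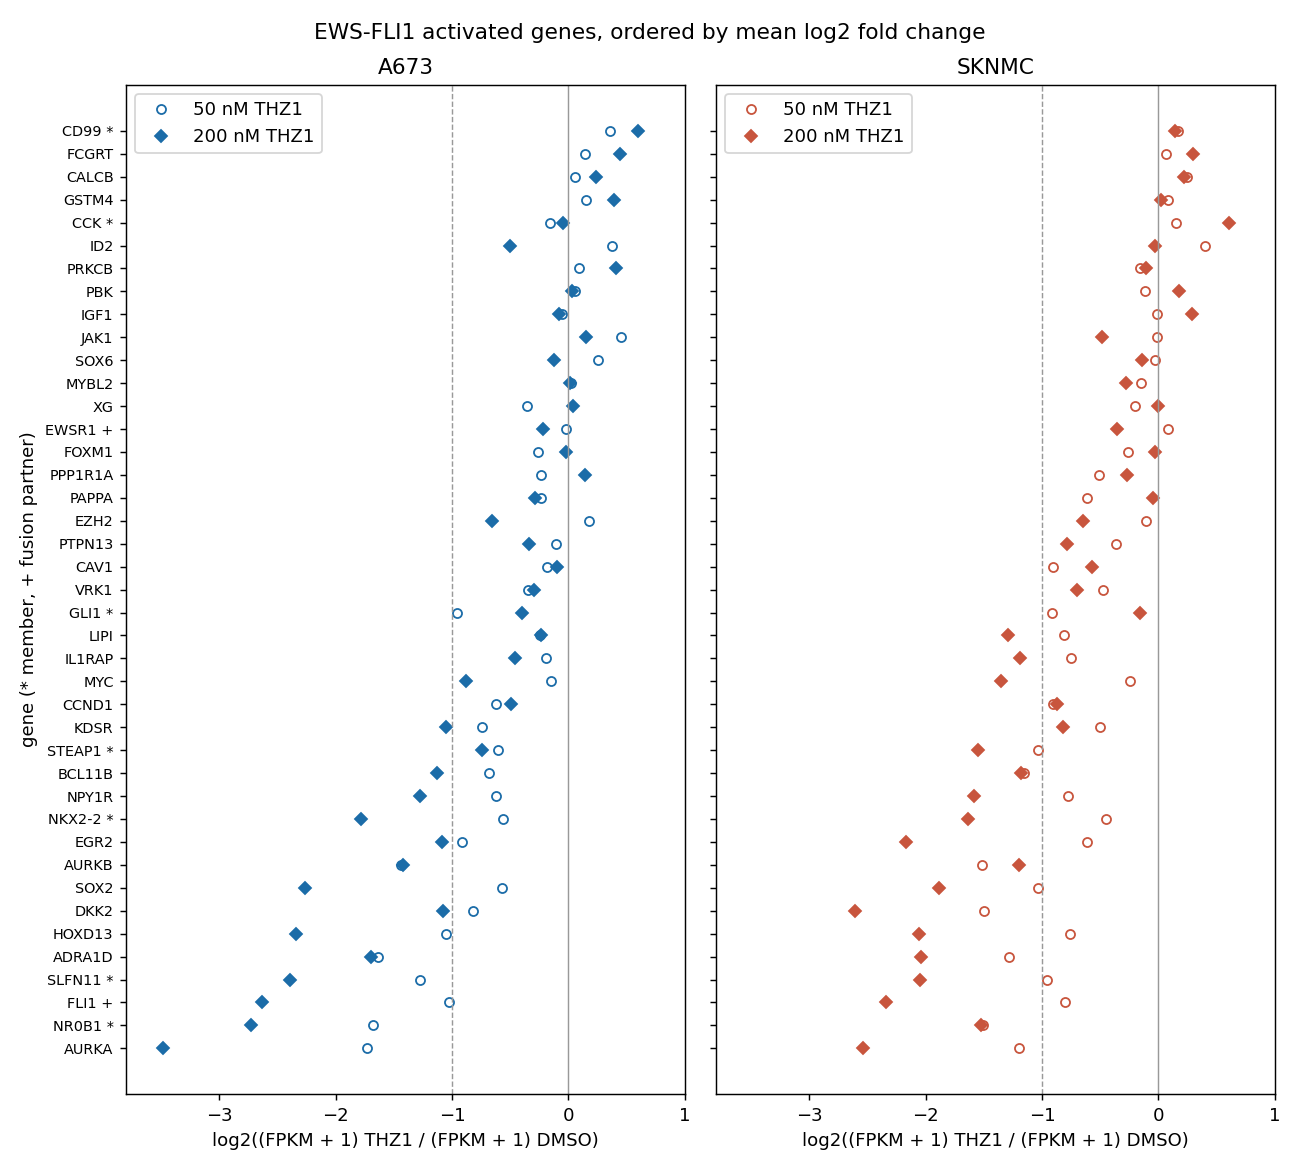
Log2 fold change of the 7 genes (marked with an asterisk), the fusion partners (marked with a plus) and the 32 other EWS-FLI1 activated genes active in both lines, A673 on the left and SKNMC on the right. Open circles are 50 nM and filled diamonds 200 nM, genes are ordered by the mean of their 4 values, and the dashed line marks 2-fold lower. AURKA, NR0B1, FLI1 and SLFN11 are at the low end and CD99 at the high end.

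Genes of most similar pattern were sought for each of the 7 over the 6 libraries, by the lowest root mean square difference of log2(FPKM + 1) after centring each gene on its mean, among 9333 genes above 1 FPKM in every library. All points share the same 6 libraries, and the likeness is a description. For NR0B1 they were RP11-1002K11.1, the meiotic recombination gene MND1 and the spindle gene PSRC1, at 0.20 to 0.25 log2 units. For NKX2-2 they were POM121C, CHAMP1 and POM121, at 0.13 to 0.16, of which POM121 and POM121C encode near-identical nucleoporins whose reads may be shared. For GLI1 they were GLI4, INTS8 and UBE2V2, at 0.10 to 0.11. GLI4 was at 7.50, 3.81 and 5.73 FPKM in A673 and 7.58, 4.11 and 8.60 FPKM in SKNMC, lowest at 50 nM as GLI1 was. For SLFN11 they were DUSP7, ZBTB33 and RBM5, at 0.14 to 0.22.

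For CD99 they were RP11-14N7.2, the glycolytic gene PGK1 and FKBP3, at 0.043 to 0.068, and for STEAP1 MRPS18B, XRCC6BP1 and MPLKIP, at 0.056 to 0.090. CCK had no close match. Its nearest were ASS1, PENK and IGFBP4, at 0.27 to 0.45. PENK, the precursor of the enkephalin peptides, was at 28.4, 27.1 and 30.9 FPKM in A673 and at 1185, 1525 and 2107 FPKM in SKNMC. That PENK, like CCK, was far higher in SKNMC and highest there at 200 nM follows from its choice by pattern.

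**Figure D5:**
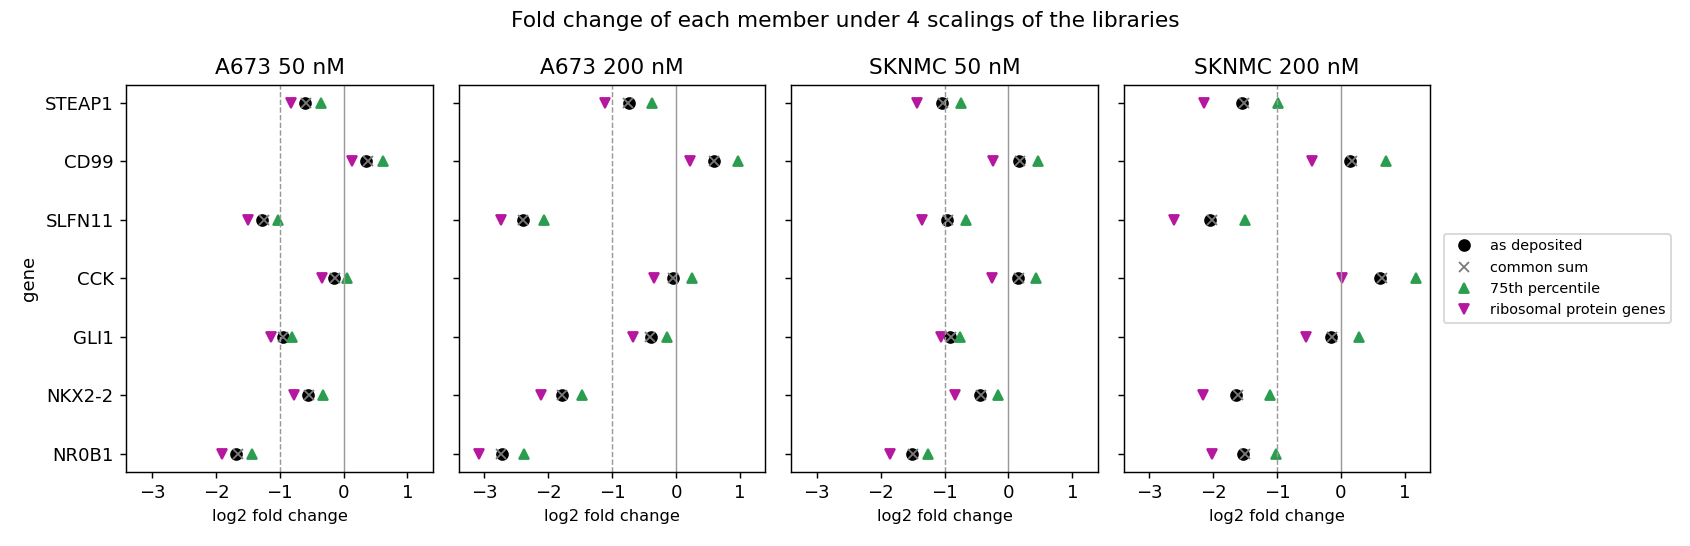
Log2 fold change of each gene (rows) in the 4 comparisons (panels) with the FPKM as deposited and with each library rescaled to a common sum, to the 75th percentile of active genes or to the median of the ribosomal protein genes. The dashed line marks 2-fold lower. NR0B1 stays beyond that line in all panels, and CD99 in SKNMC and CCK cross 0 under some scalings.

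Which of these differences pass 2-fold depends in part on how the libraries are put on a common scale. The 75th percentile shifted the median log2 fold change of active genes by 0.22 to 0.48, and the ribosomal protein genes shifted it by -0.45 to -0.20. Across the FPKM as deposited, a pseudocount of 0.1 and 3 scalings, NR0B1 stayed at least 2-fold lower in all 4 comparisons, between -3.09 and -1.02. NKX2-2 and SLFN11 stayed at least 2-fold lower at 200 nM in both lines in all of these. GLI1 stayed below DMSO at 50 nM in both lines and was above it at 200 nM in SKNMC under the 75th percentile, at 0.28.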

How the data were processed

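Reads of 100 bp from both ends of TruSeq fragments were aligned by the authors with STAR to hg19 with Ensembl 75 genes, and FPKM values per gene were deposited. Their methods name StringTie for this step, the submitters' processing notes Cufflinks, and versions, strandedness and depth were not given in the sources used here. The table's title speaks of averages, but the labels name a single library for each condition, and each column was treated as such. The deposited table lists 20311 protein-coding and 7109 lincRNA genes, and 4 columns of the authors' log2 fold changes that were not used. From the steps between low values the THZ1 libraries had roughly 89.6% to 96.7% of the depth of their DMSO library, but at most 1.27% of low values sat at a step, so absolute depth and counting error are unknown. Values under 1e-20 were taken as 0.

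Conditions came from the labels, whose titles spell SKNMC as SKMNC. Fold changes used a pseudocount of 1 FPKM, active genes were above 1 FPKM in the DMSO library of the line, and calls were set at 2-fold. Within a line there is 1 library per treatment and no test. A test over both lines was added after the data were seen: limma 3.58.1 (R 4.3.3) with an intensity trend on log2(FPKM + 1), the cell line as a block and treatment as a term. Libraries were paired by cell line, which the labels give. The 7 genes, the wider list, the paralogs and the partners were chosen with earlier results of these data known. Named were the 7 genes, the fusion partners, overlapping genes, paralogs and partners above 1 FPKM in any library, genes of the wider list 2-fold lower in all comparisons, higher in all, or among the top 3 by DMSO level, and the 3 of most similar pattern. GENCODE release 44 on GRCh37, the same assembly as hg19, gave annotation and transcripts. The promoter window of 1 gene is not reported here. The fold-change steps and the limma fit were tested on simulated data. Alternatives were a pseudocount of 0.1, other scalings, a 1.5-fold threshold, other filters and protein-coding genes alone, and for limma no block and each library left out. Python 3.11.15, pandas 2.3.3 and NumPy 2.4.6 were used.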

Additional observations from a re-analysis of the deposited data

Results flagged for a closer look

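CCK was singled out because both doses gave lower values than DMSO in A673 and higher values in SKNMC. The log2 fold change in SKNMC exceeded that in A673 by 0.30 at 50 nM and by 0.66 at 200 nM. With 1 library each, this contrast of A673 and SKNMC was not tested. Of the genes active in both lines 0.88% had this pattern. It was lost under scaling on the 75th percentile, where A673 was above 0 at both doses, at 0.050 and 0.26, and under scaling on ribosomal protein genes, where SKNMC was at -0.26 at 50 nM. CCK was 34.8-fold higher in SKNMC than in A673 with DMSO, and PTPRC, a leukocyte marker at 10.2 FPKM in SKNMC and 0.0201 FPKM in A673, differed in the same direction; its part was not tested.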

How the results depend on the processing

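The limma fit over both lines was added after the data were seen, and is paired by cell line. Without that replicate block 0 of the 7 genes were lower at 50 nM, beside 0% of genes tested. At 200 nM 0 were lower or higher, beside 13.2% lower and 0.0284% higher. With the 75th percentile 1 was higher at 50 nM and 2 at 200 nM, beside 17.8% and 24.7% of genes tested. With the ribosomal protein genes 0 were higher at 200 nM, beside 0.34%. Leaving out each library in turn leaves a treatment with 1 library, assumed to vary like the others, so values alone are given. NR0B1 was then between -1.94 and -1.25 at 50 nM and between -2.69 and -1.57 at 200 nM. SLFN11 was between -1.28 and -0.95 and between -2.39 and -2.06. STEAP1 was between -1.13 and -0.51 and between -1.46 and -0.84. Values of genes not past the threshold changed sign: CCK at 50 nM was 0.013 with a common sum, 0.24 with the 75th percentile, and from -0.24 to 0.24 with a library left out, of which 0.011 without the 50 nM library of SKNMC. GLI1 at 200 nM was 0.074 with the 75th percentile, and with the ribosomal protein genes CD99 at 50 nM was -0.054 and CCK at 200 nM -0.17. CD99 at 200 nM, which had passed, was -0.12 with the ribosomal protein genes. Within a line, with no replicate error, a value was taken as moved when it shifted by 1.5-fold or more and a count when it changed by more than 1.5 times. Of the values for single genes, 193 of those recomputed were within these bounds and 3 were not: with the ribosomal protein genes as scale, SKNMC at 200 nM gave 0.011 for CCK, -0.46 for CD99 and -2.14 for STEAP1. Of the counts, medians and background shares, 129 were within the bounds. With a 1.5-fold threshold, 4 of the 7 genes were lower at 50 nM in each line, beside 31.8% of active genes in A673 and 33.5% in SKNMC, 1 was higher at 200 nM in each line, beside 1.7% and 2.81%, and of the wider list 11 were lower in A673 and 15 in SKNMC at 50 nM. With the 75th percentile, 1 of the 7 was lower in SKNMC at 50 nM, beside 10.5% of active genes, 1 was higher at 200 nM, beside 4.39%, and of the wider list 5 were lower in A673 at 200 nM, beside 16.9%, and 3 and 7 in SKNMC at 50 and 200 nM, beside 10.5% and 13.7%. With the ribosomal protein genes, 4 of the 7 and 13 of the wider list were lower in SKNMC at 50 nM, beside 26.7%, and 19 of the wider list at 200 nM, beside 49.5%. Among members above 10 FPKM alone, the median in A673 at 200 nM was -1.78, since CCK and GLI1 are then left out. Each rescaling moves all genes of a library together by construction. Depth is unknown, which limits the low values of GLI1 and of CCK in A673 most.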
